A study of Homo sapiens with 12 samples.

Results

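The 9 genes described here drive, brake or mark cell division, and they were followed through an H3K27ac map of a breast cancer cell line in which CDK19 or CDK8 had been knocked down: the cyclins CCND1 and CCNE1, the kinases CDK4 and CDK6, the transcription factor E2F1, the pocket protein RB1, the inhibitors CDKN1A and CDKN1B, and the proliferation marker MKI67. Each gene was represented by the window of 5 kb on each side of its hg19 start, which is known to the nearest 1 kb, and by every deposited peak that touched this window. The 9 windows were touched by 94 of the 667017 peaks in the 9 lists, with 9 to 14 peaks per library.

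The cells were MDA-MB-231 (spelled MDA-MB231 in the labels), an established line from a triple-negative breast cancer that is widely used as a basal-like and mesenchymal model. Lentivirus carried the empty control vector called EV-control (Control), an shRNA against CDK19 (CDK19KD) or an shRNA against CDK8 (CDK8KD), and all cells were harvested 96 h after infection. Each group had 3 libraries, made from native, unfixed chromatin of 250000 to 500000 cells with an antibody against H3K27ac, the acetylated histone H3 lysine that marks active promoters and enhancers. The labels do not say whether the 3 libraries of a group came from separate cultures, so p-values measure the spread between these libraries, which may be technical. The labels name neither the shRNA sequences nor the number of shRNAs per kinase, knockdown levels were not analysed here, and neither were the 3 Input samples.

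Progress from G1 into S phase is governed by cyclin D with CDK4 or CDK6, which phosphorylate the RB1 protein and so release E2F factors that switch on genes such as CCNE1. Cyclin E with CDK2 completes this step, whereas the inhibitors p21 (from CDKN1A) and p27 (from CDKN1B) hold it back. CDK8 and its paralog CDK19 do not drive this cycle directly but belong to the kinase module of Mediator, the complex that links transcription factors to RNA polymerase II. H3K27ac at the start of a gene is a mark of transcriptional activity and is not a measure of its RNA or protein.

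The sequences just before 4 of the starts are shown to let the reader see which of the searched elements they hold, and because in all 9 libraries the start of each of them lay inside an H3K27ac peak. They are the 250 bases upstream of the RefSeq start (GRCh38.p14), given 5′ to 3′ on the strand of the gene. They lie at chr10:128126424-128126673 on the minus strand for MKI67, at chr20:33686386-33686635 on the minus strand for E2F1, at chr19:29811741-29811990 on the plus strand for CCNE1 and at chr6:36678464-36678713 on the plus strand for CDKN1A. Capitals mark TTTGAA in MKI67, the core of the cell cycle homology region (CHR) of genes expressed in G2 and mitosis. They mark the E2F sites in E2F1, whose product is known to act on its own promoter, and GC boxes, the sites of Sp1-type factors, in CCNE1 and CDKN1A.
MKI67: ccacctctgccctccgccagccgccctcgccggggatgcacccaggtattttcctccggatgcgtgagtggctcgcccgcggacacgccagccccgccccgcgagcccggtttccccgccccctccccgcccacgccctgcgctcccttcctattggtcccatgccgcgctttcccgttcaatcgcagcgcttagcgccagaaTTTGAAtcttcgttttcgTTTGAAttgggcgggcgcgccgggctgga
E2F1: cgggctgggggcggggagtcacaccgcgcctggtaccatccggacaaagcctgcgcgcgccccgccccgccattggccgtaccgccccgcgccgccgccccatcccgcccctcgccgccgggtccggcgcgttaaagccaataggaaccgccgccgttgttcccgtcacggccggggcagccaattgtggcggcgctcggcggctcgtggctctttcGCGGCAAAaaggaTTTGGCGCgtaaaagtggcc
CCNE1: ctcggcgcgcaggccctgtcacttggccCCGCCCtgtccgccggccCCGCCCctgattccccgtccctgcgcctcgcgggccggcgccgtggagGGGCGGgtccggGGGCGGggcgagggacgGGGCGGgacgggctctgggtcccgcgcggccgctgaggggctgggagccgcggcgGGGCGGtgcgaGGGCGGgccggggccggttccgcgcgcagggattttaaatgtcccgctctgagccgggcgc
CDKN1A: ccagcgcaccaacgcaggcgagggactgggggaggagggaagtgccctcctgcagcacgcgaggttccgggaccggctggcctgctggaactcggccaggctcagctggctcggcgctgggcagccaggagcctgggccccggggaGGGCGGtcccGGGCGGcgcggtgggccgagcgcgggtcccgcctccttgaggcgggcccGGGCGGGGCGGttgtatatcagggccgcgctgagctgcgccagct

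Of the 9 genes, 7 had a RefSeq entry of this kind within 3 kb of the gene's 5′ end in that assembly. CCND1 and RB1 were not among them. Motifs were searched on both strands, and overlapping matches were counted once. The GC box, GGGCGG, was present in 7 of these 7 genes against 42.6% of 35116 RefSeq promoters of the same length, with 7 matches in CCNE1 and 3 in CDKN1A. The E2F site, searched as TTTCGCGC, TTTGGCGC, TTTCCCGC or TTTGCCGC, was found in these letters in E2F1 alone among the 7 genes, at 33 and 20 bases before the start, against 2.79% of all promoters. The CHR core, searched as TTTGAA or TTCGAA, was found in MKI67 alone among the 7, at 47 and 29 bases before the start, against 14.3% of all promoters. CCAAT was present in 3 of the 7 (E2F1, CDKN1B and MKI67; 32% of all promoters) and TATAAA in 0 (10.7% of all promoters). The share of G and C ran from 64.4% in CDKN1B to 81.2% in CCNE1, all above the median of 58.0% over all promoters. A match of letters describes the sequence and is not evidence of binding.

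Every one of the 9 genes had its start inside an H3K27ac peak in every library, that is in 81 of 81 gene and library pairs. Of the 112316 genome tiles of 10 kb that were touched by any peak, 47.5% had a peak in all 9 libraries. That share is an unlike measure, since a tile counts when touched anywhere and tiles are not centred on gene starts. A peak in the start window in all 9 libraries was also found for 22 of the 24 other cell cycle genes examined below. In 71 of the 81 pairs a single peak touched the window, and in 79 the peak over the start was also the strongest one in the window by its deposited −log10 p. Only CDK4 gave exceptions: in Control library 3 and CDK19KD library 1 the next peak downstream was stronger, with −log10 p of 11.3 against 10.0 and of 14.6 against 9.56.

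The 9 lists were of unequal length. They held 62669 to 87530 peaks on chromosomes 1 to 22 and X, covered 261.7 to 318.3 Mb, and had 17.1% to 43.9% of their peaks at a deposited −log10 q of at least 5. Markers of cell types were read in the same windows. The basal-like and mesenchymal genes VIM, CD44, CAV1 and EGFR had covered windows in all 9 libraries, with a mean share of 83.7% to 99.8%, and ESR1, the luminal oestrogen receptor gene, and ALB, a hepatocyte gene, had no peak in any. EPCAM and the leukocyte gene PTPRC had peaks in all 9 libraries at a lower share (35.3% and 39.6%), and GATA3 in 6. CDH1, the gene of epithelial E-cadherin, had no peak in the 3 Control libraries and was covered over 18.4% to 33.8% of its window in the 6 knockdown libraries.

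**Figure D1:**
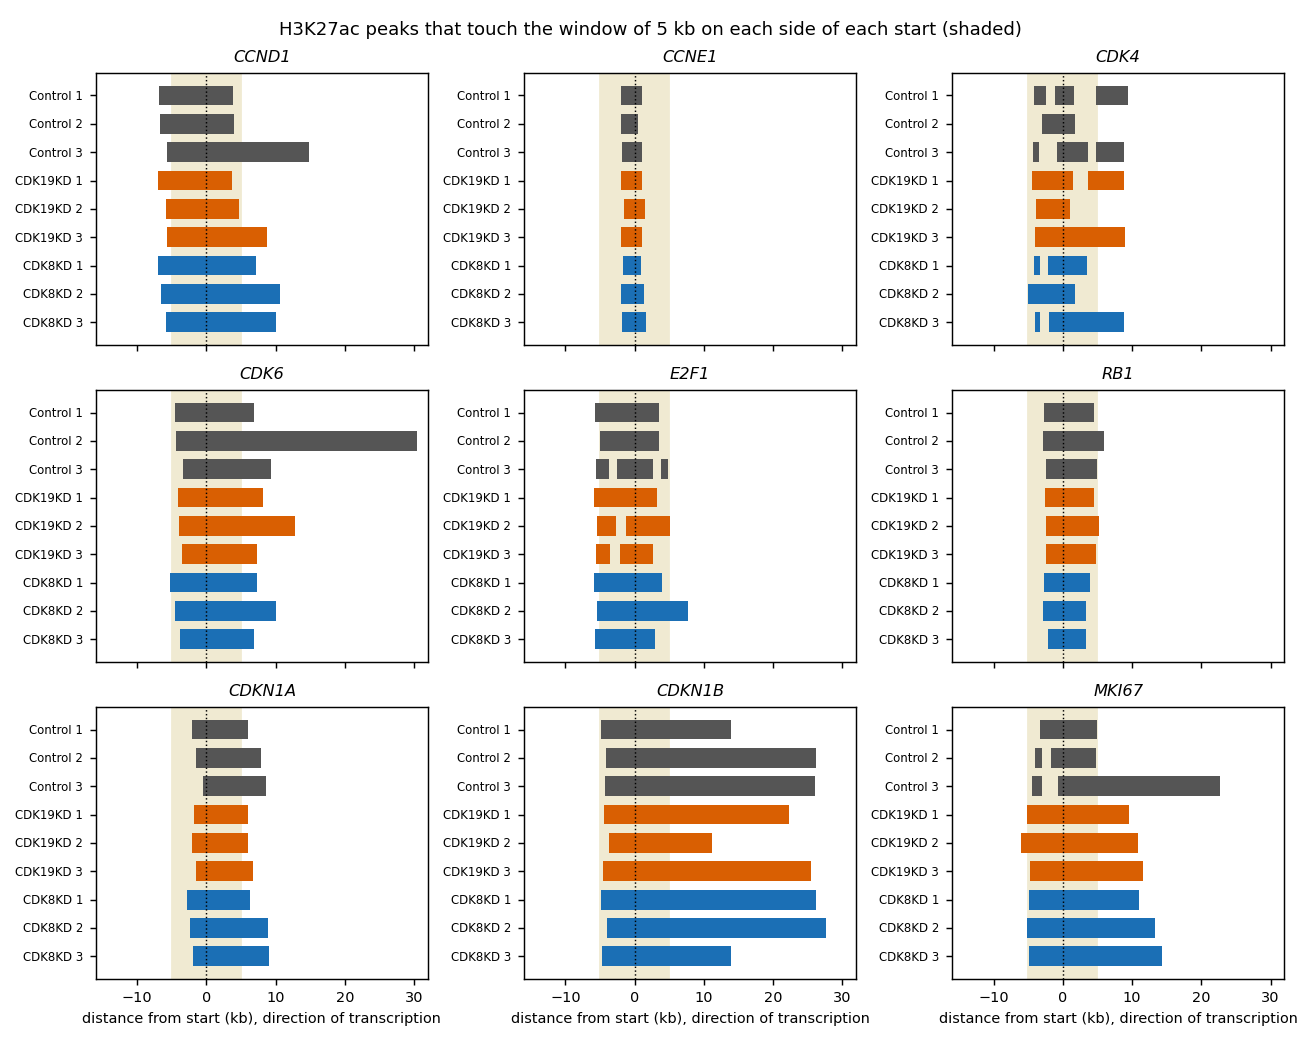
Peaks (bars) that touch the window of 5 kb on each side of the start (shaded) for each gene, 1 row per library, with the distance from the start in kb along the direction of transcription and the start as a dotted line. The start lies in a peak in all 81 rows, and the MKI67 peak stops 0.688 to 3.35 kb upstream of the start in Control but 4.77 to 5.99 kb upstream in the knockdown libraries.

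The covered share, the percentage of the 10 kb start window that lies under peaks, was the main measure, since peak lists hold no read counts. Over the 9 libraries its mean was 95.7% ± 5.87 (SD) for CCND1, 94.0% ± 4.23 for CDKN1B, 91.6% ± 11.7 for MKI67 and 91.6% ± 5.35 for CDK6. It was 82.6% ± 10.1 for E2F1, 69.7% ± 7.10 for RB1, 68.6% ± 6.49 for CDKN1A, 63.4% ± 15.2 for CDK4 and 29.6% ± 3.12 for CCNE1. Each gene overlapped its neighbours in this order, except that CCNE1, at 24.4% to 33.9%, lay below every value of CDK4, the lowest of which was 47.2%. Of the 78056 genome tiles tested, whose median share was 29.4%, 49.7% lay above CCNE1, 7.77% above the median gene (E2F1) and 2.99% above CCND1.

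**Figure D2:**
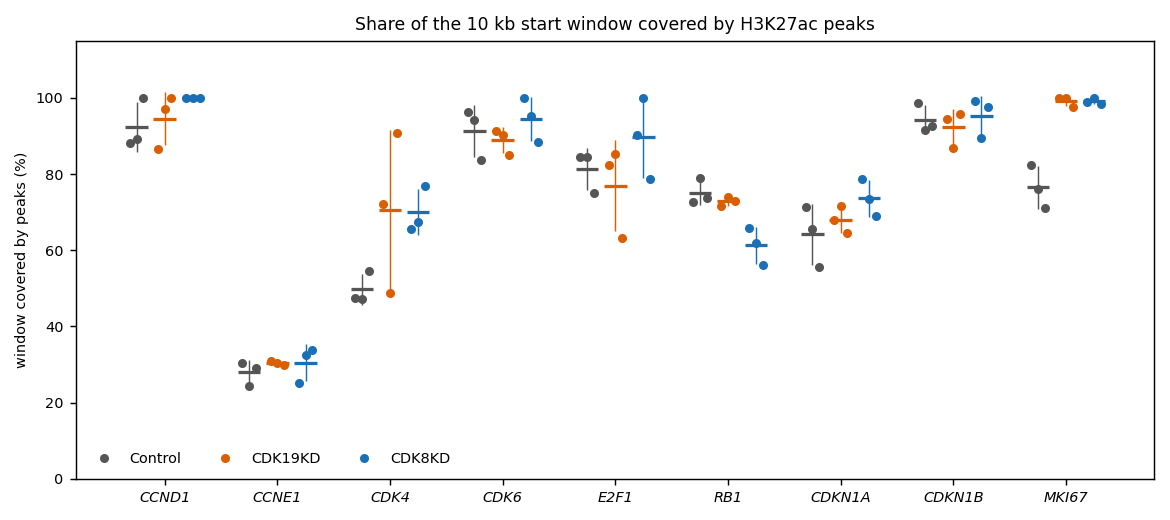
Share of the 10 kb start window covered by H3K27ac peaks (%), 1 point per library, with the mean (bar) and SD (line) of the 3 libraries of each group. CCNE1 stays between 24.4% and 33.9% in all groups, and the MKI67 points of Control (71.1% to 82.3%) lie below those of both knockdowns (97.7% to 100%).

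The rank of the start peak within its own list separated the genes in another way. The start peaks of CCND1, CDK6, CDKN1A and CDKN1B stood between the 88.5th and the 99.5th percentile by −log10 p in all 9 libraries, and RB1 between the 85.0th and the 94.6th. CDK4, E2F1, MKI67 and CCNE1 ranked lower, from the 46.6th percentile (CCNE1 in CDK8KD library 1) to the 84.8th (CDK4 in Control library 3). These 5 genes were also the ones with a window peak of −log10 q of at least 5 in every library, against 6 libraries for CDK4, 5 for E2F1, 5 for MKI67 and 2 for CCNE1. MKI67 had a wide domain with a peak of middling rank, while RB1 had a narrower domain with a high-ranking peak.

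**Figure D3:**
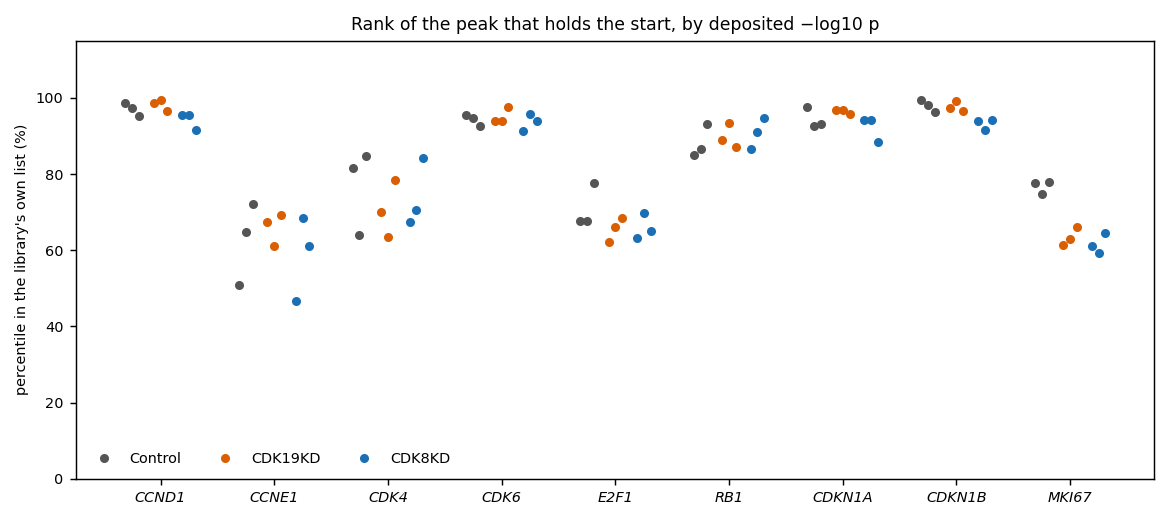
Percentile of the peak that holds the start among all peaks of its own library by deposited −log10 p, 1 point per library. CCND1, CDK6, RB1, CDKN1A and CDKN1B stay at or above the 85.0th percentile, and the other 4 genes lie between the 46.6th and the 84.8th. Lists differ in length, so shifts between groups, such as the lower MKI67 points of both knockdowns, cannot by themselves show a change in signal.

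CCND1 encodes cyclin D1, the partner of CDK4 and CDK6 and a frequently amplified breast cancer gene. Its merged region, the union of overlapping peaks of all lists, spanned chr11:69449046-69472166 in hg19 (23121 bp) and was wider than 91.4% of the 34047 regions held by all 9 libraries. The window was covered over 88.2%, 89.2% and 100% in the 3 Control libraries, 86.7%, 97.0% and 100% in CDK19KD, and 100% in each of the 3 CDK8KD libraries. All 9 peaks reached past the upstream end of the window, 5.72 to 6.96 kb from the start, and what varied was the downstream edge. That edge lay 3.82, 3.92 and 14.8 kb into the gene in Control, 3.67, 4.70 and 8.68 kb in CDK19KD and 7.18, 10.7 and 10.1 kb in CDK8KD. The groups overlapped, and by limma the share differed from Control by 2.13 points in CDK19KD (95% interval -7.31 to 11.6, adjusted p = 0.886) and by 7.57 points in CDK8KD (-1.87 to 17, adjusted p = 0.434).

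CCNE1 encodes cyclin E1, the partner of CDK2 and a classical E2F target. It had the narrowest domain of the 9 genes, chr19:30300976-30304573 (3598 bp), which was wider than 9.97% of the regions held by all libraries. Its single peak covered 30.5%, 24.4% and 29.0% of the window in Control, 30.9%, 30.4% and 29.9% in CDK19KD and 25%, 32.6% and 33.9% in CDK8KD. Its fold enrichment, the authors' linear ratio for the peak, lay between 2.92 and 4.17. The peak sat over the start in all libraries, from 1.53 to 2.03 kb upstream to 0.515 to 1.57 kb downstream. Neither knockdown was apart from Control, with 2.40 points for CDK19KD (-6.25 to 11, limma adjusted p = 0.851) and 2.53 points for CDK8KD (-6.11 to 11.2, limma adjusted p = 0.802).

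CDK4, a kinase that phosphorylates RB1, had the most fragmented window. Its neighbours in the GRCh38.p14 gene order are TSPAN31 downstream and MARCHF9 upstream, and the merged region (chr12:58136647-58151070, 14424 bp) reached beyond the window on the downstream side. Peaks of this region were not assigned to CDK4 or to a neighbour. The covered share was 47.3%, 47.2% and 54.5% in Control, 72.2%, 48.8% and 90.7% in CDK19KD, and 65.6%, 67.5% and 76.9% in CDK8KD. The CDK8KD libraries all lay above the Control libraries, as they did in 12.8% of all windows tested, while CDK19KD library 2 lay among them. Gaps between separate peaks inside the window, 4 of them of 1165 to 3139 bp, were found in Control libraries 1 and 3, against 1 of 2270 bp in CDK19KD and 2 of 1179 and 1333 bp in CDK8KD. The differences, 20.9 points for CDK19KD (-1.93 to 43.7, limma adjusted p = 0.533) and 20.3 points for CDK8KD (-2.49 to 43.1, limma adjusted p = 0.391), did not pass the test.

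CDK6, the close relative of CDK4, lay in a far wider domain, chr7:92434291-92470337 (36047 bp), wider than 96.8% of the regions held by all libraries. Its window was covered over 96.2%, 94.1% and 83.6% in Control, 91.4%, 90.3% and 85.0% in CDK19KD, and 100%, 95.2% and 88.5% in CDK8KD. The downstream side of the window was fully covered in every library, so the start window could vary on the upstream side alone. The covered length of the whole region was 23.2, 34.9 and 26.0 kb in Control, 25.8, 28.5 and 19.3 kb in CDK19KD, and 21.7, 23.2 and 20.7 kb in CDK8KD. Every CDK8KD library was below every Control library, as in 4.34% of all regions, the closest pair being 23.18 and 23.24 kb. The difference of -0.34 on the log2 scale (-0.74 to 0.07) had a limma adjusted p of 0.420.

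E2F1, the transcription factor released when RB1 is phosphorylated, was covered over 84.5%, 84.5% and 75.0% of its window in Control, 82.3%, 85.3% and 63.2% in CDK19KD, and 90.2%, 100% and 78.7% in CDK8KD. The merged region was chr20:32266307-32279882 (13576 bp). The start peak was broken by a gap upstream of the start in Control library 3 and in CDK19KD libraries 2 and 3, and by none in the 3 CDK8KD libraries, where the peak reached 5.49 to 5.88 kb upstream. Along the whole region the covered length was 9.22, 8.47 and 8.09 kb in Control, 9.06, 9.09 and 6.93 kb in CDK19KD, and 9.90, 13.2 and 9.43 kb in CDK8KD. All 3 CDK8KD values exceeded the 6 others, with a difference from Control of 0.32 on the log2 scale (-0.07 to 0.71, limma adjusted p = 0.426) and a CDK19KD minus CDK8KD difference of -0.37 (-0.76 to 0.02, limma adjusted p = 0.344). CDK8KD lay wholly above Control in 15.8% of all regions and wholly above CDK19KD in 19.7%.

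RB1, the pocket protein that restrains E2F, had a single peak in every library within chr13:48875110-48883896 (8787 bp). Its share was 72.7%, 78.9% and 73.7% in Control, 71.6%, 74.0% and 72.9% in CDK19KD, and 65.9%, 61.8% and 56.1% in CDK8KD. All 3 CDK8KD libraries lay below the 6 others, and 4.5% of all windows tested had CDK8KD wholly below Control. The upstream edge hardly moved, at 2.20 to 2.89 kb from the start in all 9 libraries, and the difference lay inside the gene: the downstream edge was at 4.56, 5.90 and 5.01 kb in Control, 4.54, 5.30 and 4.82 kb in CDK19KD, and 3.95, 3.35 and 3.42 kb in CDK8KD. CDK8KD minus Control was -13.8 points (-22.3 to -5.33, limma adjusted p = 0.147), which did not pass, and CDK19KD minus CDK8KD was 11.6 points (3.08 to 20.1, limma adjusted p = 0.199). The fold enrichment of the peak in its own list was 4.04 to 5.46 in Control, 5.29 to 6.04 in CDK19KD and 5.20 to 6.31 in CDK8KD.

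CDKN1A, the gene of the inhibitor p21 and a direct target of p53, was covered over 71.3%, 65.6% and 55.5% of its window in Control, 68.0%, 71.6% and 64.6% in CDK19KD, and 78.7%, 73.4% and 69.0% in CDK8KD. Its region was chr6:36643136-36654968 (11833 bp). The downstream side was fully covered in all 9 libraries, and the upstream edge ranged from 0.550 kb (Control library 3) to 2.87 kb (CDK8KD library 1). The peak, which here made up the whole covered length, was 8.19, 9.41 and 9.12 kb long in Control, 7.75, 8.20 and 8.15 kb in CDK19KD, and 9.21, 11.2 and 10.9 kb in CDK8KD. The knockdowns did not overlap each other in this length, and CDK19KD minus CDK8KD was -0.37 on the log2 scale (-0.67 to -0.07, limma adjusted p = 0.227). CDK19KD lay wholly below CDK8KD in 19.7% of all regions.

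CDKN1B, the gene of the inhibitor p27, lay in the widest domain of the 9 genes, chr12:12865095-12915946 (50852 bp), wider than 98.6% of the regions held by all libraries. In the GRCh38.p14 gene order CDKN1B stands between GPR19 and APOLD1, and whether the domain holds their starts was not examined. The window share of CDKN1B was 98.6%, 91.7% and 92.6% in Control, 94.5%, 86.9% and 95.7% in CDK19KD, and 99.1%, 89.4% and 97.7% in CDK8KD. The peak over the start ran 11.1 to 27.7 kb downstream, and the covered length of the region was 38.5 to 47.3 kb in all libraries. Both knockdowns overlapped Control, at -1.91 points for CDK19KD (-9.90 to 6.09, limma adjusted p = 0.876) and 1.09 points for CDK8KD (-6.91 to 9.09, limma adjusted p = 0.929).

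MKI67 is the gene of the Ki-67 protein that coats mitotic chromosomes and serves as the standard marker of proliferating cells. It was the 1 gene of the 9 whose start window limma called higher in either knockdown. Of all windows tested, limma called 0.0563% higher in CDK19KD and 0.635% higher in CDK8KD. The share of MKI67 was 82.3%, 76.1% and 71.1% in Control, 100%, 100% and 97.7% in CDK19KD, and 99.0%, 100% and 98.4% in CDK8KD. The lowest knockdown library lay above the highest Control library. CDK19KD lay wholly above Control in 6.52% of all windows tested, and CDK8KD did so in 12.8%. By limma, CDK19KD exceeded Control by 22.7 points (16.7 to 28.7, adjusted p = 0.0419) and CDK8KD exceeded Control by 22.6 points (16.6 to 28.6, adjusted p = 0.0245), and the knockdowns differed from each other by 0.10 points (-5.90 to 6.11, adjusted p = 1.0). All 6 knockdown libraries were at or near full coverage, where this share cannot show a difference between them. The limit of 100% also keeps their spread small, with an SD of 1.33 in CDK19KD and 0.817 in CDK8KD against 5.59 in Control. The fit shares its spread over the groups, so that spread lies below the one of Control. The intervals and p-values against Control may therefore be too favourable. Scaling by total covered length cannot lift this limit, since shares near 100% then differ mainly by the totals of the lists. It gave 12.3 points for CDK19KD minus CDK8KD (-3.19 to 27.9, limma adjusted p = 0.497). With peaks of −log10 q of at least 5 this difference was 32.9 points (-58.5 to 124.3, limma adjusted p = 0.828). Both contrasts share the same 3 Control libraries. With the replicate number of the titles as a block, the adjusted p was 0.105 for CDK19KD, which no longer passed, and 0.0452 for CDK8KD.

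The added coverage of MKI67 lay upstream of its start. In Control the start peak ended 3.35, 1.74 and 0.688 kb upstream, in CDK19KD 5.09, 5.99 and 4.77 kb, and in CDK8KD 4.90, 5.20 and 4.84 kb. The upstream 5 kb of the window were covered over 67.0%, 56.5% and 42.3% in Control and over 95.4% to 100% in the 6 knockdown libraries. In Control libraries 2 and 3 a second, separate peak followed upstream after a gap of 1253 and 2309 bp, a stretch that was under a single peak in every knockdown library. The downstream 5 kb were covered over 95.8% to 100% in Control and 100% in the others.

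The fold enrichment of the MKI67 peak, which the authors' caller set within each list, showed no such separation of the groups. It was 4.65, 3.32 and 3.49 in Control, 3.49, 3.26 and 3.84 in CDK19KD, and 3.47, 2.93 and 3.22 in CDK8KD. The rank of this peak by −log10 p did separate the knockdowns from Control, in the opposite direction to the share. Its percentile was 74.7 to 78.0 in Control, 61.5 to 66.2 in CDK19KD and 59.3 to 64.5 in CDK8KD. Lists differ in length, and how often other peaks shift in this way was not tested. Over the whole merged region of MKI67 (chr10:129901409-129930994, 29586 bp) the covered length was 8.23, 21.1 and 24.8 kb in Control, 14.7, 18.0 and 16.3 kb in CDK19KD, and 18.0, 23.2 and 24.0 kb in CDK8KD. These lengths overlapped Control, with limma adjusted p of 0.999 for CDK19KD (0.00067 on the log2 scale) and 0.640 for CDK8KD (0.41). The call on the start window also depended on the libraries and on the peaks used. It was lost for both knockdowns without Control library 2 (adjusted p = 0.135 and 0.0857) or without any 1 of the 6 knockdown libraries (0.0980 to 0.126 for CDK19KD, 0.0503 to 0.0795 for CDK8KD), with differences of 22.3 to 23.5 points and 22.2 to 22.98 points in these cases. It was kept without Control library 1 (25.6 and 25.5 points) and without Control library 3 (20.02 and 19.9 points). With the 20000 strongest peaks of each list, MKI67 had a peak in 2 libraries only and the difference was -46.4 points for both knockdowns (adjusted p = 0.554 and 0.400). Scaled by the total covered length of each library, which was 262.9, 312.8 and 315.7 Mb in Control, 271.2, 261.7 and 268.5 Mb in CDK19KD and 292.1, 295.7 and 318.3 Mb in CDK8KD, the differences were 32 and 19.7 points (adjusted p = 0.166 and 0.284). Of the 4 luminal and epithelial markers, CDH1 had no peak in Control and a share 29.6 points higher in CDK8KD (19.1 to 40.1, limma adjusted p = 0.0419) and 25 points higher in CDK19KD (14.5 to 35.5, limma adjusted p = 0.144). The other 3 did not share this pattern: EPCAM was at -3.07 points in CDK19KD and -4.68 in CDK8KD (limma adjusted p = 0.832 and 0.660), GATA3 at -3.98 and 13.1 points (limma adjusted p = 0.981 and 0.853), and ESR1 had no peak in any library. The part of these markers in the MKI67 result was not tested.

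**Figure D4:**
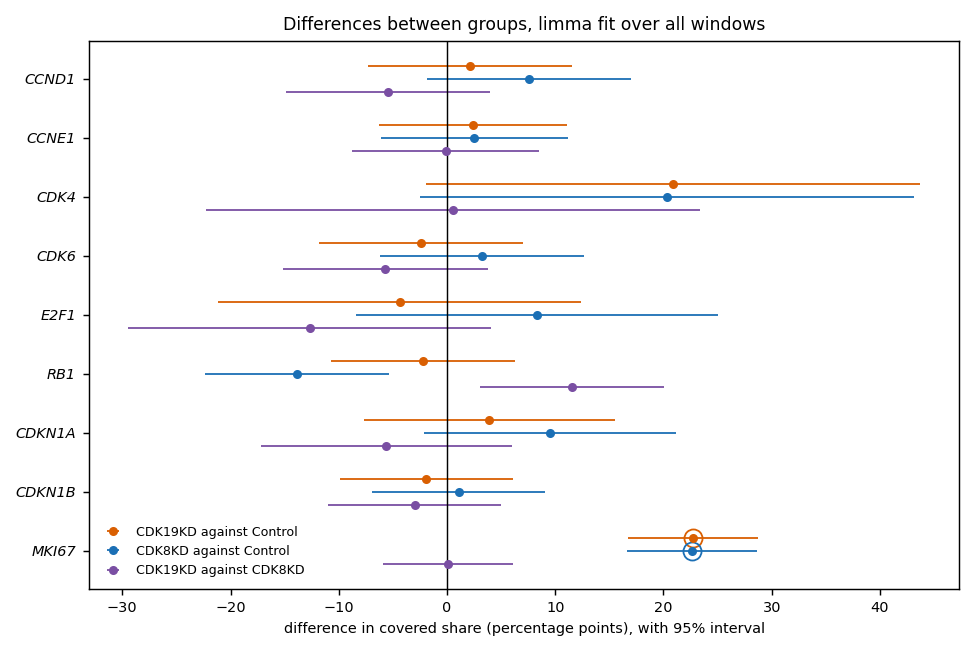
Difference in the covered share of the start window (percentage points) between groups for each gene, with the 95% interval of the limma fit; rings mark adjusted p under 0.05. The ringed points are MKI67 in CDK19KD against Control (22.7) and in CDK8KD against Control (22.6), and the RB1 interval of CDK8KD against Control (-22.3 to -5.33) lies below 0 without passing after adjustment. This fit shared its spread over the groups and did not pair libraries by replicate number. With that number as a block, the limma adjusted p of MKI67 was 0.105 in CDK19KD and 0.0452 in CDK8KD.

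Among all 78095 windows tested, limma called 0.0794% in CDK19KD against Control, 0.0563% higher in CDK19KD, and the call of MKI67 made 1 of the 9 genes. With the replicate number as a block, MKI67 no longer passed in this comparison, and 1 window was called higher and 1 lower. In CDK8KD against Control limma without the block called 0.722% of windows, 0.635% higher in CDK8KD, and again 1 of the 9 genes, MKI67. Between the knockdowns 1.0% of windows and 0 of the 9 genes were called. An unadjusted p under 0.05 was reached by 1 gene (MKI67) in CDK19KD against Control, by 2 (MKI67 and RB1) in CDK8KD against Control and by 1 (RB1) between the knockdowns, against 9.92%, 14.7% and 14.6% of windows. The numbers of windows called over the genome changed when single libraries were left out. Without Control library 1 they were 218 higher and 989 lower in CDK19KD (44 and 18 with all libraries) and 734 higher and 1328 lower in CDK8KD (496 and 68), and without CDK8KD library 3 they were 5 and 2 in CDK19KD and 12 and 3 in CDK8KD.

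Without a model, the 3 CDK19KD libraries all lay above the 3 Control libraries for 1 gene (MKI67), as they did in 6.52% of windows, and the groups did not overlap, in either direction, in 13.8%. All CDK8KD libraries were above all Control libraries for 2 genes (MKI67 and CDK4) against 12.8% of windows and below them for 1 (RB1) against 4.5%, or 17.3% in either direction. CDK19KD was wholly above CDK8KD for 1 gene (RB1) against 5.38% of windows, with 20.8% in either direction. The genes are few, and whether these counts of groups that do not overlap differ from the background was not tested.

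For the covered length of whole regions, limma called 0 of the 9 genes in each comparison. Over all 34047 regions it called 0.0% in CDK19KD against Control, 0.690% in CDK8KD against Control and 0.626% between the knockdowns. At an unadjusted p under 0.05 there were 0, 1 (RB1) and 1 (CDKN1A) of 9, against 10.6%, 15.2% and 15.6% of regions. Groups did not overlap for 0 genes in the first comparison, for 4 in the second and for 4 in the third, against 15.3%, 20.1% and 24.2% of regions. In CDK8KD against Control, CDK4 and E2F1 were longer (15.8% of regions) and CDK6 and RB1 shorter (4.34%). In CDK19KD against CDK8KD, RB1 was longer (4.52% of regions) and CDKN1A, E2F1 and MKI67 were shorter (19.7%). The last 2 comparisons share the CDK8KD libraries. The median difference over the 9 genes in window share was 2.13, 7.57 and -3.0 points in the 3 comparisons, beside -2.26, 0.883 and -3.22 points over all windows. Scaling by total covered length moved the latter to 0.986, 0.158 and 0.526, while the medians of the 9 genes are given unscaled. The 9 genes also had a higher share (median 82.6%) than the tiles tested (29.4%), so these medians are not on a like footing. Over regions the median difference was -0.05, 0.22 and -0.12 on the log2 scale for the genes and -0.05, 0.10 and -0.15 for all regions, and the same scaling moved the latter to 0.10, 0.07 and 0.03.

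A further 24 cell cycle genes were examined the same way: cyclins, kinases, E2F and pocket protein genes, inhibitors, and genes of S phase and mitosis. Of these, 22 had a peak in the window in all 9 libraries and 2, CDKN2A and CDKN2B, in none. These last are neighbouring inhibitor genes of the INK4 family that MDA-MB-231 cells are known to have lost. The highest mean shares belonged to AURKA, a mitotic kinase gene (99.2% ± 2.42, SD, n = 9), and CCNA2, the cyclin A2 gene (95.1% ± 7.27). The lowest above 0 were those of MYBL2, an E2F target of the MuvB pathway (29.7% ± 11), and RBL1, the gene of the pocket protein p107 (34.2% ± 16.9).

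By limma, 0 of these 22 genes passed in any of the 3 comparisons, for windows or for regions. At an unadjusted p under 0.05 there were 0, 1 and 2 for windows and 1, 2 and 3 for regions, below the share of all windows and regions in each of the 6 cases. The median differences in window share were -0.675 points in CDK19KD against Control (11 genes above and 11 below 0), 2.67 points in CDK8KD against Control (15 above, 6 below) and -4.49 points in CDK19KD against CDK8KD (6 above, 16 below). The 1 gene with an unadjusted p under 0.05 in CDK8KD against Control was E2F2, at 47.7%, 42.1% and 26.2% in Control and 55.3%, 82.6% and 54.0% in CDK8KD (25.3 points, 2.80 to 47.8, limma adjusted p = 0.296), which was singled out after its value was seen. The 8 S phase and mitosis genes, the group nearest in role to MKI67, had a median difference of -2.18 points in CDK19KD and 5.46 points in CDK8KD, with 0 called in either.

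**Figure D5:**
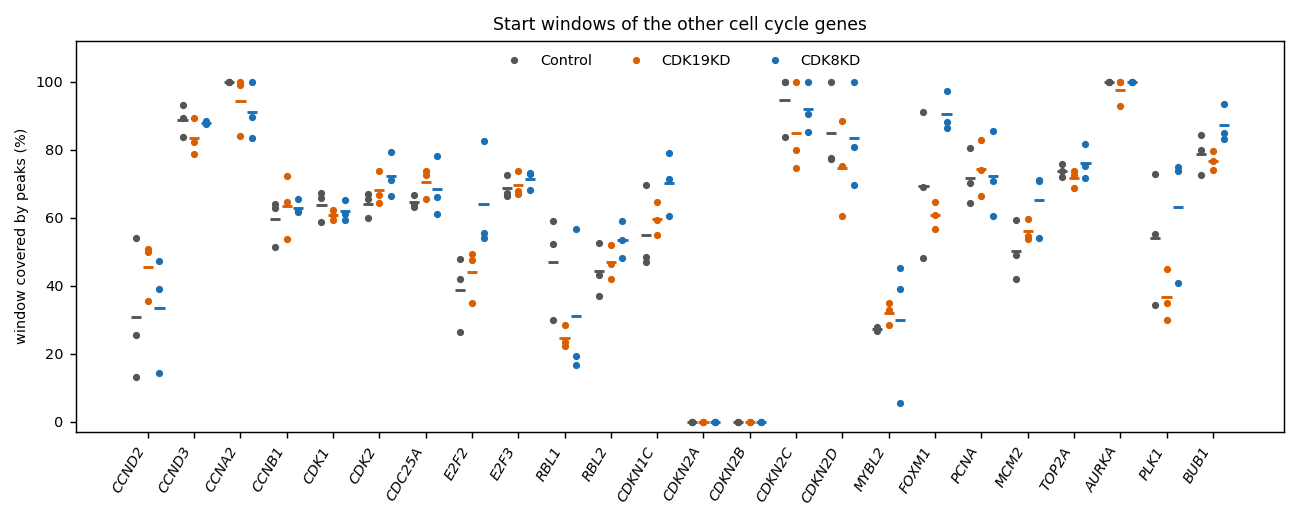
Covered share of the 10 kb start window (%) for 24 other cell cycle genes, 1 point per library and a bar for the mean of each group of 3. CDKN2A and CDKN2B are at 0 in all libraries, and AURKA stays between 92.8% and 100%.

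The gene most like each of the 9 was the one with the smallest mean absolute difference in share over the 9 libraries, among the other members and the 24 genes. CDK6 and CDKN1B were nearest to each other (5.22 points). CCND1 was nearest to AURKA (5.14 points), CDKN1A to CDK2 (4.50), CCNE1 to MYBL2 (6.21), RB1 to TOP2A (6.92), E2F1 to BUB1 (7.04), MKI67 to CCND1 (7.66) and CDK4 to CDKN1C (11.1). The libraries are the same for all these genes, and a small distance says only that the windows were covered to a like extent.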

How the data were processed

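H3K27ac ChIP-seq libraries of 3 groups (Control, CDK19KD, CDK8KD; 3 each, grouped by the sample titles) were used as 9 deposited lists of broad peaks, 1 per library. The submitters' processing notes name MACS2, deepTools and hg19. Versions, settings, the control library, the aligner and read depth are not given in the sources used here, so no interval from counts was computed. Each peak's fold enrichment, a linear ratio, and its −log10 of a p-value and of a q-value are as deposited by the authors and were used only to describe, rank or filter peaks within a list. The deposited score was not used.

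Peaks on chromosomes 1 to 22 and X were kept. The share of each 10 kb window covered by peaks was computed for genome tiles with a mean share of at least 5% and for windows centred on the starts. Overlapping peaks of the 9 lists (at least 1 bp) were merged into regions, and the log2 of the covered length was taken in regions held by all 9 libraries. Both were fitted with limma 3.58.1 (lmFit, eBayes with trend) in R 4.3.3 on all 9 libraries, with Benjamini-Hochberg adjustment over the whole table, a threshold of 0.05 and 95% intervals. The fit was run on simulated data with independent errors and shifts set only in windows of middling share. That simulation does not cover paired libraries or windows near full coverage, such as that of MKI67. Other steps used Python 3.11.15 with pandas 2.3.3 and numpy 2.4.6. All 9 members are named; other genes were named if called, else the 2 highest and 2 lowest by share and those with no peak, plus the gene nearest in share to each member. E2F2 was named outside this rule, after its value was seen. Starts of the 34 other genes were written to the nearest 1 kb from general knowledge, and chromosome and strand matched RefSeq for 27 of the 27 found there. Members and lists were chosen with earlier results of these data known.

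Libraries with the same number in their titles deviated together from their group means (correlations of 0.138 to 0.611 over windows, all 9 pairs above 0.1), so the numbers were taken as pairing the libraries, a reading from the data since the labels do not state it. The main fit did not include this pairing, which entered only as a block in an alternative fit. Alternatives were the 20000 strongest peaks of a list, or those whose −log10 q was no lower than 5, peaks joined within 1000 bp, the block, scaling by total covered length, windows of 2 kb on each side, no minimum share, regions held by at least 5 libraries, and leaving out each library.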

Additional observations from a re-analysis of the deposited data

How the results depend on the processing

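Of 810 alternative differences of single genes, 61 had another sign than the reported one. Among the differences that changed sign, only those of MKI67 against Control had passed the test. The sign also changed for MKI67 between the knockdowns, a difference that had not passed. The count of called genes in the start windows, 1 in each knockdown against Control, became 0 with peaks of −log10 q of at least 5, with the 20000 strongest peaks, with scaling by total covered length and with windows of 2 kb on each side (13.1 points for MKI67 in both). Leaving out 1 library gave 0 to 1 in both. The replicate block gave 0 in CDK19KD against Control and changed no other call of the 9 genes. Joining peaks within 1000 bp could not close the MKI67 gaps of 1253 and 2309 bp and left the fit unchanged. It is therefore no test of the call. Dropping the minimum share left MKI67 called (adjusted p of 0.0474 and 0.0330, by limma). Over all windows, calls in CDK19KD against Control (44 higher, 18 lower) were 1 and 1 with the replicate block, and 1 and 0 when scaled. Leaving out Control library 1 gave more lower than higher calls in both knockdowns (218 higher and 989 lower in CDK19KD, 734 and 1328 in CDK8KD), and leaving out CDK8KD library 3 left 5 and 2 and 12 and 3. Region calls with the block were 16 higher and 11 lower (0 and 0 without it) in CDK19KD against Control, 1310 and 245 (209 and 26) in CDK8KD against Control and 214 and 1406 (26 and 187) between the knockdowns. Scaling changed the split of higher and lower windows between the knockdowns from 175 and 609 to 125 and 203. In CDK8KD against Control it changed that of windows from 496 and 68 to 88 and 5, and that of regions from 209 and 26 to 72 and 22. Region calls between the knockdowns, 26 and 187 unscaled, became 0 and 0 when scaled. The 9 genes with a peak in all libraries became 5 with either stricter peak set. The cause of these changes was not tested.

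Scaling turned the sign in CDK19KD against Control for CDK6 (6.41 points), RB1 (5.40) and CDKN1B (7.26), and in CDK19KD against CDK8KD for CCND1 (6.53), CCNE1 (3.72), CDK6 (5.38), CDKN1A (2.95) and CDKN1B (8.52). In region length, on the log2 scale, it did so for RB1 (0.073), CDKN1A (0.0017) and CDKN1B (0.077) in the former and for CDKN1B (0.059) in the latter. In the largely covered windows of CCND1, CDK6 and CDKN1B, scaled shares follow mainly the totals of the lists. With the 20000 strongest peaks, MKI67 was at -46.4 points in both knockdowns, and in CDK8KD against Control CDK4 was at -1.70 and E2F1 at -17.2. With −log10 q of at least 5, E2F1 (-15.2) and MKI67 (-13.4) turned in CDK8KD against Control, and CCNE1 (20.2) and E2F1 (13.5) in CDK19KD against CDK8KD. Read depth was not available to set a limit on what weak peaks can show.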
